A study of Aspergillus niger with 24 samples.

Results

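The genes described here are 6 of the enzyme genes of pentose catabolism in Aspergillus niger, larA, xyrA, xyrB, ladA, xdhA and xkiA, together with xlnR and araR, which encode the activators of such genes. They were chosen by identity, as 8 rows of the 11846 genes in the deposited table, and not by a cutoff on any measured value. Earlier results of these data were known when they were chosen. The table lists IDs without names. The names used here were assigned to the IDs from outside the files, and none was checked against a sequence. Mycelium of wild type (WT) Aspergillus niger CICC2629 was compared with strains of the same background that express a lipase called TLL. Cultures grew on potato dextrose agar, a glucose-rich solid medium, at 28 °C. The 8 groups are WT on labelled days 1, 2, 3 and 4 and TLL on the same days, with 3 libraries each and 24 in all. Sampling at 0, 24, 48 and 72 hours is stated for the series, but no label links an hour to a day, and days are therefore given as labelled. The sources used here do not give the promoter that drives the lipase or the number of transformants. Nor do they say whether replicates were separate cultures, so the p-values reflect the spread between these libraries, and that spread may be technical.

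In filamentous fungi L-arabinose and D-xylose, the pentoses of plant cell walls, are broken down by alternating reductions and oxidations. A reductase turns the sugar into a polyol, a dehydrogenase oxidises the polyol to a keto sugar, and both branches meet at xylitol. Xylitol is oxidised to D-xylulose, which a kinase phosphorylates for entry into the pentose phosphate pathway. In A. niger the zinc cluster factors XlnR and AraR switch on these genes in response to D-xylose and L-arabinose, and glucose represses the system through carbon catabolite repression.

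All values are TPM, an RNA abundance scaled to gene length and to the library total, so that levels of different genes can be set side by side. TPM values do not carry read numbers. The depth of a library is therefore not known, and counting error could not be given. The values come from whole mycelium, in which fewer hyphal cells of a type and less RNA per cell cannot be told apart. Replicates of days 2 to 4 correlated across genes at 0.983 to 0.992. The lowest day 1 correlations were 0.923 for WT and 0.920 for TLL, where WT replicate 1 and TLL replicate 3 stood away from their groups and correlated with each other at 0.972. The row of the introduced lipase was not analysed here, and the labels of the strains remain unchecked by that transcript.

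Differences were tested with limma on log2(TPM + 1), on which changes of low genes come out too small, over 9558 genes (1 TPM or more in 3 or more libraries). A gene was called at a Benjamini-Hochberg adjusted p under 0.05 over all 9558. All 8 genes stood at 1 TPM or more in every library.

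The 8 genes spanned a wide range of levels. Over the 24 libraries larA averaged 100.5 TPM, xyrB 73.7 TPM, xdhA 50.3 TPM and xkiA 19.9 TPM, against a median gene mean of 21.6 TPM. The lower genes were xyrA at 8.93 TPM, xlnR at 8.32 TPM, araR at 6.28 TPM and ladA at 4.03 TPM. The abundant reductase genes also moved most. The group means of larA spanned a 20.5-fold range in TPM and those of xyrB a 10.5-fold range, and their log2 ranges exceeded those of 95.4% and 90.8% of the genes tested. The range was 3.49-fold for xdhA, 2.66-fold for araR, 2.44-fold for ladA, 1.94-fold for xyrA, 1.92-fold for xlnR and 1.77-fold for xkiA.

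**Figure D1:**
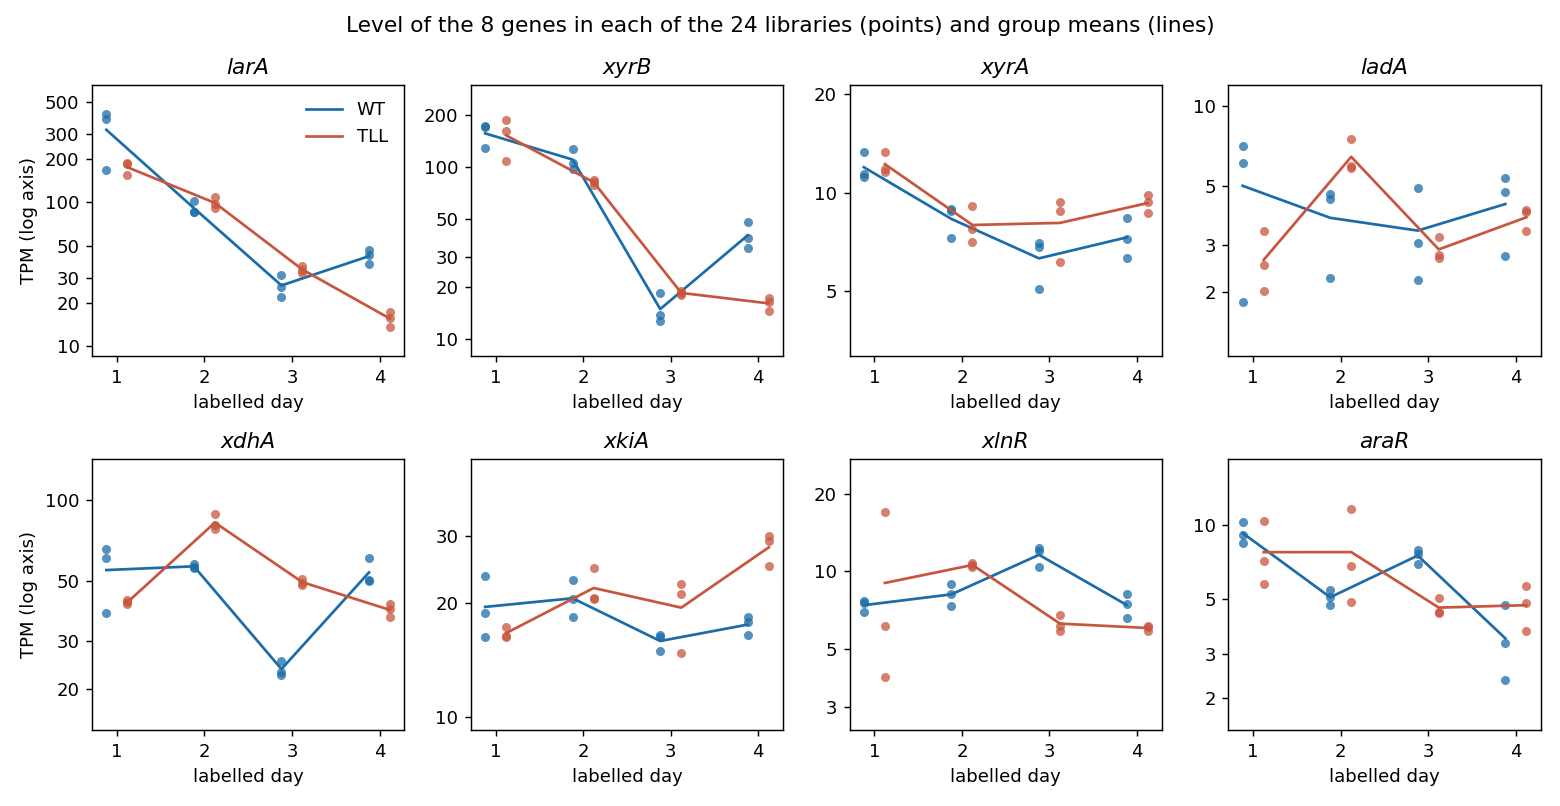
TPM of the 8 genes on a log axis against labelled day, with 1 point per library and lines through the means of the 3 libraries of each group (blue WT, red TLL). From day 1 to day 4 larA went from 319 to 42.3 TPM in WT and from 175.5 to 15.6 TPM in TLL, while xkiA stayed between 15.9 and 28.0 TPM in all group means.

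The gene larA (NRRL3_10050) encodes L-arabinose reductase, which makes L-arabitol. In WT it stood at 167.73, 381.03 and 409.09 TPM in replicates 1, 2 and 3 of day 1, at 85.28, 85.98 and 102.46 TPM on day 2, at 25.99, 31.41 and 22.05 TPM on day 3 and at 46.81, 37.03 and 43.12 TPM on day 4. In TLL it stood at 186.23, 186.28 and 154.1 TPM on day 1, at 97.84, 108.78 and 90.84 TPM on day 2, at 36.12, 33.79 and 32.43 TPM on day 3 and at 13.6, 17.4 and 15.71 TPM on day 4. Every day 1 library lay above every later library in both strains, and all TLL day 4 libraries lay below all others of the series.

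From day 1 to day 2 larA fell in WT by 1.70 on the log2 scale (SE 0.23, limma adjusted p = 7.43e-06) and in TLL by 0.82 (SE 0.23, limma adjusted p = 0.00566). It fell again from day 2 to day 3, by 1.76 in WT (limma adjusted p = 3e-06) and by 1.51 in TLL (limma adjusted p = 0.000115). At the last step the strains parted. In WT larA rose by 0.66 (SE 0.23, limma adjusted p = 0.0200), a call that was lost under both other scalings of the libraries (log2 changes 0.51 and 0.51) and without WT day 3 replicate 3 (0.54) or WT day 4 replicate 1 (0.59). In TLL it fell by 1.09 (SE 0.23, limma adjusted p = 0.000694). The TLL step differed from the WT step by -1.75 (SE 0.33, limma adjusted p = 0.000123).

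Between strains larA was lower in TLL on day 4, at 15.6 ± 1.90 TPM against 42.3 ± 4.94 TPM in WT (mean ± SD, n = 3), without overlap. The log2 difference was -1.39 (SE 0.23, limma adjusted p = 4.98e-05). On day 1 the TLL mean was 175.5 ± 18.6 TPM and the WT mean 319 ± 132 TPM (mean ± SD, n = 3), with WT replicate 1 inside the TLL range. That log2 difference of -0.76 (SE 0.23) passed narrowly at a limma adjusted p of 0.0495. The call was lost under the replicate block (limma adjusted p = 0.0540) and in 23 of the 24 fits that left out 1 library, and it passed with a larger difference of -1.17 without WT day 1 replicate 1. On days 2 and 3 the differences were 0.12 (SE 0.23, limma adjusted p = 0.780) and 0.37 (SE 0.23, limma adjusted p = 0.204), and the day 3 value passed without WT day 1 replicate 1 (limma adjusted p = 0.0281).

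The gene xyrB (NRRL3_10868) encodes a D-xylose reductase, which makes xylitol. In WT it stood at 128.04, 171.67 and 169.75 TPM on day 1, at 97.36, 105.91 and 127.16 TPM on day 2, at 13.67, 18.34 and 12.61 TPM on day 3 and at 47.51, 33.73 and 38.65 TPM on day 4. In TLL it stood at 187.14, 162.28 and 107.66 TPM on day 1, at 78.81, 83.61 and 81.6 TPM on day 2, at 18.04, 19.02 and 18.36 TPM on day 3 and at 17.24, 14.57 and 16.34 TPM on day 4. The libraries of days 1 and 2 lay above all libraries of days 3 and 4 in both strains. The WT day 4 libraries lay above all those of WT day 3, while both later TLL days stayed low.

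From day 2 to day 3 xyrB fell by 2.82 on the log2 scale in WT (SE 0.18, limma adjusted p = 2.12e-10) and fell by 2.08 in TLL (SE 0.18, limma adjusted p = 1.9e-07). The preceding step was smaller, with log2 changes of -0.50 in WT (SE 0.18, limma adjusted p = 0.0412) and -0.86 in TLL (SE 0.18, limma adjusted p = 0.000586). The WT value of that step was lost in 5 of the 24 fits without 1 library, under the replicate block (limma adjusted p = 0.0515) and in the fit of only the libraries compared (limma adjusted p = 0.109). From day 3 to day 4 xyrB rose in WT by 1.37 (SE 0.18, limma adjusted p = 3.9e-06). In TLL the same step gave -0.19 (SE 0.18, limma adjusted p = 0.408), and the difference between the steps was -1.57 (SE 0.26, limma adjusted p = 3.7e-05). On day 4 xyrB stood at 16.1 ± 1.36 TPM in TLL against 40.0 ± 6.98 TPM for WT (mean ± SD, n = 3), a log2 difference of -1.25 (SE 0.18, limma adjusted p = 1.28e-05). With all libraries its differences of -0.06, -0.42 and 0.31 on days 1, 2 and 3 did not pass. Without both day 1 libraries that stood away, that of day 2 passed (limma adjusted p = 0.0253).

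The gene xyrA (NRRL3_01952), named for a D-xylose reductase of the same reaction, was low and changed little. It ranged from 5.07 to 13.3 TPM over all libraries, with day 1 means of 11.9 ± 1.14 TPM for WT and 12.2 ± 0.954 TPM for TLL (mean ± SD, n = 3), the highest of their strains. From day 1 to day 2 it fell in TLL by 0.56 on the log2 scale (SE 0.16, limma adjusted p = 0.00534). In WT it fell by 0.48 (SE 0.16, limma adjusted p = 0.0236), which was lost without WT day 1 replicate 1 (-0.40, limma adjusted p = 0.0606) or WT day 2 replicate 1 (-0.39, limma adjusted p = 0.113), and also in the fit of only the libraries compared (limma adjusted p = 0.115) and without both day 1 libraries that stood away (limma adjusted p = 0.0522). No strain difference on a labelled day passed for xyrA, with log2 differences of 0.03, -0.06, 0.31 and 0.32 on days 1 to 4 and the smallest limma adjusted p at 0.0979. Without TLL day 3 replicate 1 the day 3 difference was 0.47 and passed (limma adjusted p = 0.0232).

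The ratio of both D-xylose reductase transcripts was also computed in each library. The level of xyrB was 13.3 ± 3.16 times that of xyrA in WT day 1 and 12.5 ± 3.27 times in TLL day 1 (mean ± SD, n = 3). On day 3 it was 2.37 ± 0.376 times in WT and 2.36 ± 0.511 times in TLL. On day 4 it was 5.63 ± 1.75 times in WT, where the lowest library held a ratio of 4.04, and 1.74 ± 0.254 times in TLL, where the highest held 1.99. These ratios are descriptions and were not tested.

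The gene ladA (NRRL3_02523) encodes L-arabitol dehydrogenase, which oxidises L-arabitol to L-xylulose. It was the lowest of the enzyme genes in every library, from 1.83 to 7.48 TPM. Its day 1 libraries in WT held 1.83, 7.07 and 6.11 TPM, with the low value in replicate 1, the library that stood away from its group. In TLL it held 3.38, 2.52 and 2.01 TPM on day 1 and 5.85, 5.95 and 7.48 TPM on day 2, with no overlap between both days. That rise of 1.04 on the log2 scale (SE 0.32, limma adjusted p = 0.0102) was 0.73 after median-of-ratios scaling (limma adjusted p = 0.0549) and 0.24 after quantile normalization (limma adjusted p = 0.549). The fall by 0.93 from day 2 to day 3 in TLL (SE 0.32) passed at a limma adjusted p of 0.0498. It was lost in 15 of the 24 fits without 1 library, under the replicate block (limma adjusted p = 0.0626), under both other scalings (limma adjusted p = 0.102 and 0.223), with a pseudocount of 0.1 TPM, with no filter and with the filter at 5 TPM. With all libraries no step in WT and no strain difference passed for ladA. Its day 2 strain difference of 0.67 passed without both day 1 libraries that stood away (limma adjusted p = 0.0380). Without WT day 1 replicate 1 the day 1 strain difference went from -0.60 to -1.08 and passed (limma adjusted p = 0.00981), as did the WT step from day 1 to day 2, which went from -0.23 to -0.70 (limma adjusted p = 0.0401). In the same fit the TLL step from day 1 to day 2 differed from the WT step by 1.74 (limma adjusted p = 0.00202), against 1.27 with all libraries (limma adjusted p = 0.0841).

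The gene xdhA (NRRL3_09204) encodes xylitol dehydrogenase, which makes D-xylulose and serves both branches. In WT it held 38.08, 65.75 and 61.14 TPM on day 1, 55.82, 57.96 and 56.5 TPM on day 2, 23.11, 25.35 and 22.46 TPM on day 3 and 61.13, 49.99 and 50.54 TPM on day 4. In TLL it held 42.51, 41.77 and 41.04 TPM on day 1, 80.56, 88.8 and 77.86 TPM on day 2, 49.4, 48.46 and 50.87 TPM on day 3 and 36.75, 39.43 and 41.21 TPM on day 4. The WT day 3 libraries were the lowest of the series and the TLL day 2 libraries the highest, with no overlap with any other group.

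In WT xdhA fell by 1.23 on the log2 scale from day 2 to day 3 (SE 0.15, limma adjusted p = 9.29e-07) and rose by 1.15 from day 3 to day 4 (SE 0.15, limma adjusted p = 2.03e-06). In TLL it rose by 0.96 from day 1 to day 2 (SE 0.15, limma adjusted p = 1.51e-05), fell by 0.72 to day 3 (SE 0.15, limma adjusted p = 0.00174), and the last step gave -0.34 (SE 0.15, limma adjusted p = 0.0663), which passed without WT day 1 replicate 1 (limma adjusted p = 0.00527) or replicate 2 (limma adjusted p = 0.0461). The TLL step differed from the WT step between days 1 and 2, by 0.88 (SE 0.21, limma adjusted p = 0.0103), and between days 3 and 4, by -1.49 (SE 0.21, limma adjusted p = 4.51e-06). The first of these was lost after median-of-ratios scaling, quantile normalization and a fit of only the libraries compared.

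The strain difference of xdhA changed sides with the day. On day 1 it was -0.35 (SE 0.15, limma adjusted p = 0.154), and without WT day 1 replicate 1 it was -0.59 and passed (limma adjusted p = 0.000498). On day 3 it was higher in TLL, at 49.6 ± 1.21 TPM against 23.6 ± 1.52 TPM (mean ± SD, n = 3; log2 difference 1.04, SE 0.15, limma adjusted p = 8.75e-06). On day 4 it was lower in TLL, at 39.1 ± 2.25 TPM against 53.9 ± 6.28 TPM (mean ± SD, n = 3; log2 difference -0.45, SE 0.15, limma adjusted p = 0.0144), a call lost without WT day 4 replicate 1 (-0.35) or TLL day 4 replicate 1 (-0.40). On day 2 the difference of 0.53 (SE 0.15, limma adjusted p = 0.0283) became 0.33 under both other scalings and no longer passed. It was also lost in 5 of the 24 fits without 1 library.

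The gene xkiA (NRRL3_04471) encodes D-xylulose kinase, the last enzyme of the pathway. Its WT libraries held 14.92 to 23.47 TPM on all 4 days, and no step in WT passed with all libraries. The WT step from day 2 to day 3, at -0.35, passed without WT day 1 replicate 1 or 3, WT day 2 replicate 3 or TLL day 3 replicate 1, with limma adjusted p-values of 0.0332 to 0.0460. In TLL it held 16.4, 17.24 and 16.3 TPM on day 1, 20.54, 20.46 and 24.66 TPM on day 2, 14.77, 22.42 and 21.08 TPM on day 3 and 29.09, 29.98 and 24.95 TPM on day 4. The TLL day 4 libraries lay above every other library of the series. On day 4 it was higher in TLL by 0.64 on the log2 scale (SE 0.15, limma adjusted p = 0.00143), at 28.0 ± 2.68 TPM against 17.5 ± 0.978 TPM (mean ± SD, n = 3). On day 3 the difference of 0.26 (limma adjusted p = 0.177) became 0.43 and passed without TLL day 3 replicate 1 (limma adjusted p = 0.0251). The rise of 0.52 from day 3 to day 4 in TLL (SE 0.15, limma adjusted p = 0.00797) was 0.35 and did not pass without TLL day 3 replicate 1. The rise of 0.37 from day 1 to day 2 in TLL (SE 0.15, limma adjusted p = 0.0472) was -0.0058 after quantile normalization and was lost in 17 of the 24 fits without 1 library.

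**Figure D2:**
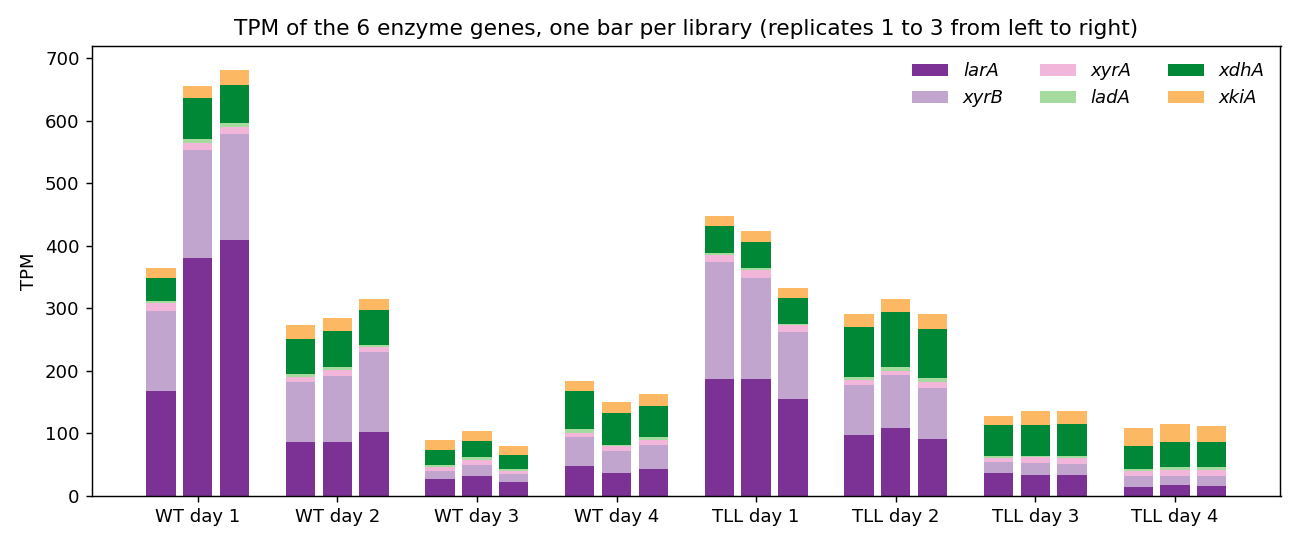
Stacked TPM of the 6 enzyme genes, 1 bar per library, grouped by strain and labelled day. The sums ran from 79.3 TPM in a WT day 3 library to 681 TPM in a WT day 1 library, and larA with xyrB held 83.4% of the sum on average in WT day 1 and 28.3% in TLL day 4.

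The 6 enzyme genes together summed to 567 ± 175 TPM in WT day 1, 291 ± 22.0 TPM in WT day 2, 90.6 ± 11.9 TPM in WT day 3 and 165 ± 17.1 TPM in WT day 4 (mean ± SD, n = 3). In TLL the sums were 401 ± 60.6, 299 ± 13.4, 133 ± 4.61 and 112 ± 3.26 TPM on days 1 to 4 (mean ± SD, n = 3). Median-of-ratios scaling lowered the TLL sums of days 2, 3 and 4 to 255, 126 and 106 TPM. The makeup of the sum changed too, but across the groups it did not simply follow the size. The reductase genes larA and xyrB, counted without xyrA, held 83.4% ± 2.15 of it in WT day 1 and 45.5% ± 2.46 in WT day 3 (mean ± SD, n = 3). In TLL larA and xyrB held 81.5% ± 2.48 on day 1 and 28.3% ± 0.494 on day 4 (mean ± SD, n = 3). The level of xdhA was 0.347 ± 0.0443 times that of xyrB in WT day 1 and 0.289 ± 0.0816 times in TLL day 1. On day 3 it was 1.62 ± 0.209 times in WT and 2.69 ± 0.120 times in TLL (mean ± SD, n = 3), without overlap between the strains. These sums and ratios describe the libraries and carry no test.

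The gene xlnR (NRRL3_04034) encodes the activator of xylan-degrading and D-xylose genes. In WT it held 7.72, 6.96 and 7.55 TPM on day 1, 8.92, 8.21 and 7.35 TPM on day 2, 11.97, 12.37 and 10.45 TPM on day 3 and 7.48, 6.61 and 8.2 TPM on day 4. In TLL it held 3.9, 6.15 and 17.04 TPM on day 1, 10.6, 10.37 and 10.82 TPM on day 2, 5.89, 6.16 and 6.82 TPM on day 3 and 6.16, 5.89 and 6.1 TPM on day 4. Its highest WT libraries were those of day 3, the day on which larA, xyrB and xdhA were lowest in WT. The highest value of the series, 17.04 TPM, was that of TLL day 1 replicate 3, which stood away from its group.

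On day 3 xlnR was lower in TLL, at 6.29 ± 0.478 TPM against 11.6 ± 1.01 TPM in WT (mean ± SD, n = 3), without overlap. The log2 difference was -0.79 (SE 0.28, limma adjusted p = 0.0243). The call was lost without WT day 3 replicate 1 (-0.77), WT day 3 replicate 2 (-0.74), TLL day 3 replicate 1 (-0.75) or TLL day 3 replicate 2 (-0.78). The TLL step from day 2 to day 3 differed from the WT step by -1.13 (SE 0.39, limma adjusted p = 0.0367), a call lost in 10 of the 24 fits without 1 library.

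Several calls of xlnR depended on 1 library. Without TLL day 1 replicate 3 the day 1 strain difference went from 0.03 (limma adjusted p = 0.969) to -0.51 (limma adjusted p = 0.0201). In the same fit its WT rise from day 2 to day 3 of 0.46 passed (limma adjusted p = 0.00635), as did its WT fall by 0.58 from day 3 to day 4 (limma adjusted p = 0.00102) and its rise of 0.97 from day 1 to day 2 in TLL (limma adjusted p = 1.62e-05). With all libraries no single step of xlnR passed in either strain. Its fall by 0.67 from day 2 to day 3 in TLL (SE 0.28, limma adjusted p = 0.103) passed without TLL day 1 replicate 3 (limma adjusted p = 0.00125) or replicate 1 (limma adjusted p = 0.0322). With only the libraries compared that fall passed too (limma adjusted p = 0.00706). In such fits the WT rise to day 3 and the WT fall to day 4 also passed (limma adjusted p = 0.0117 and 0.00659). Median-of-ratios scaling, which moved the median change of all genes from -0.17 to -0.01 in the WT step from day 2 to day 3, gave xlnR a rise of 0.63 there (limma adjusted p = 0.0263), and quantile normalization gave 0.66 (limma adjusted p = 0.00492).

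The gene araR (NRRL3_07564) encodes the activator of L-arabinose genes. In WT it held 8.43, 9.07 and 10.28 TPM on day 1, 4.74, 5.43 and 5.12 TPM on day 2, 7.63, 7.94 and 6.96 TPM on day 3 and 3.32, 2.37 and 4.75 TPM on day 4. In TLL it held 5.77, 7.15 and 10.33 TPM on day 1, 4.88, 6.84 and 11.55 TPM on day 2, 4.43, 4.41 and 5.05 TPM on day 3 and 3.74, 5.65 and 4.82 TPM on day 4. The WT libraries of days 1 and 3 lay above those of days 2 and 4, while the TLL libraries of days 1 and 2 overlapped.

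In WT araR fell by 0.75 on the log2 scale from day 1 to day 2 (SE 0.24, limma adjusted p = 0.0185), a call lost without WT day 1 replicate 3 (-0.68) or WT day 2 replicate 1 (-0.71). It fell by 0.96 from day 3 to day 4 (SE 0.24, limma adjusted p = 0.00199). The step between, 0.48 (SE 0.24, limma adjusted p = 0.0933), passed as a rise under median-of-ratios scaling (0.65, limma adjusted p = 0.00779) and quantile normalization (0.67, limma adjusted p = 0.00712). On day 3 araR was lower in TLL, at 4.63 ± 0.364 TPM against 7.51 ± 0.501 TPM (mean ± SD, n = 3; log2 difference -0.60, SE 0.24, limma adjusted p = 0.0444). That call was lost in 14 of the 24 fits without 1 library. The TLL step differed from the WT step by -1.05 from day 2 to day 3 (SE 0.33, limma adjusted p = 0.0245) and by 0.97 from day 3 to day 4 (SE 0.33, limma adjusted p = 0.0174). The first was lost in 2 of the 24 fits without 1 library, and the second without WT day 4 replicate 2 (limma adjusted p = 0.0574). The ratio of xlnR to araR was 0.806 ± 0.0966 in WT day 1, with araR the higher in all 3 libraries, and 2.26 ± 0.531 in WT day 4 (mean ± SD, n = 3).

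**Figure D3:**
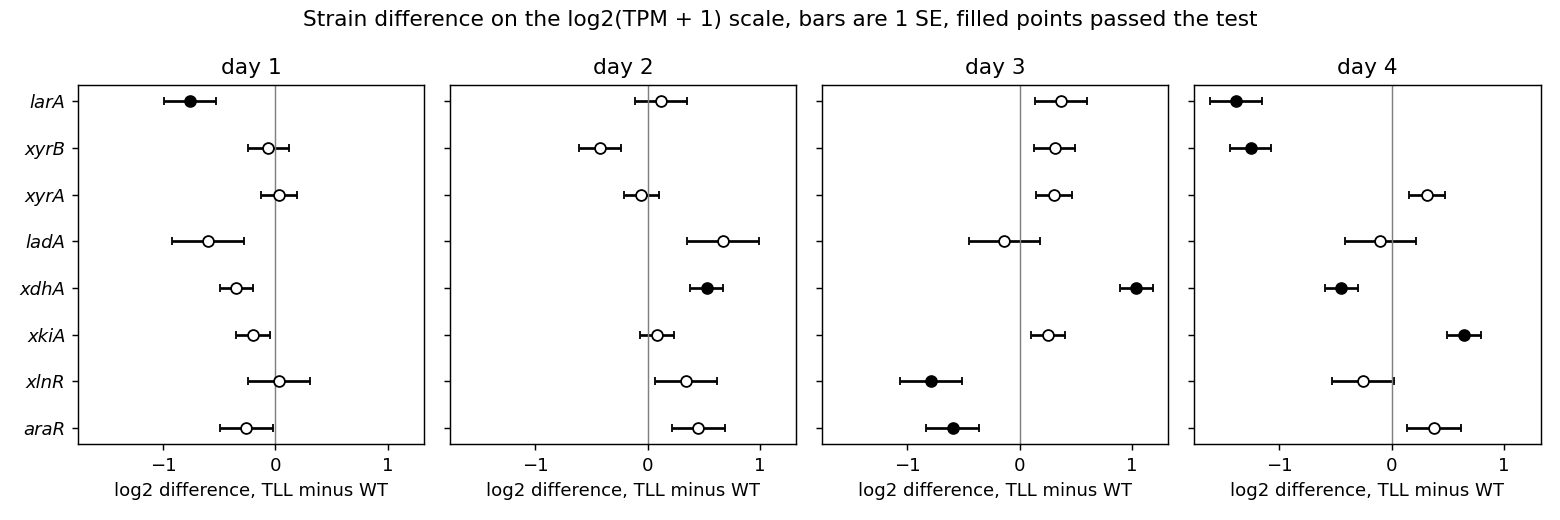
Log2 difference between TLL and WT for the 8 genes on each labelled day, on the log2(TPM + 1) scale, with bars of 1 SE and filled points where the limma adjusted p was under 0.05. The point of xdhA lies at 1.04 on day 3 and at -0.45 on day 4, and those of larA and xyrB lie at -1.39 and -1.25 on day 4.

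Counted by day, the strain difference passed for 1 of the 8 genes on day 1 (larA), where 7.31% of all tested genes passed and 5.56% were lower in TLL, and for 1 on day 2 (xdhA), where 9.71% passed and 8.22% were higher. On day 3 it passed for 3 genes, with xdhA higher and xlnR and araR lower in TLL, where 47.1% of all genes passed, 32.2% as higher and 14.9% as lower. On day 4 it passed for 4 genes, with xkiA higher and larA, xyrB and xdhA lower in TLL, where 54.1% passed, 27.3% as higher and 26.8% as lower. The 8 genes' median log2 differences on days 1 to 4 were -0.23, 0.23, 0.28 and -0.18, beside medians of -0.02, 0.19, 0.19 and 0.03 over all genes. Read against these shares, the counts of passing members were near the background on each of days 1 to 4. For larA, xyrB, xdhA, xkiA and araR, 5 of the 8, the difference between strains changed with the day, where 63.1% of all genes passed the limma F test of the interaction.

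**Figure D4:**
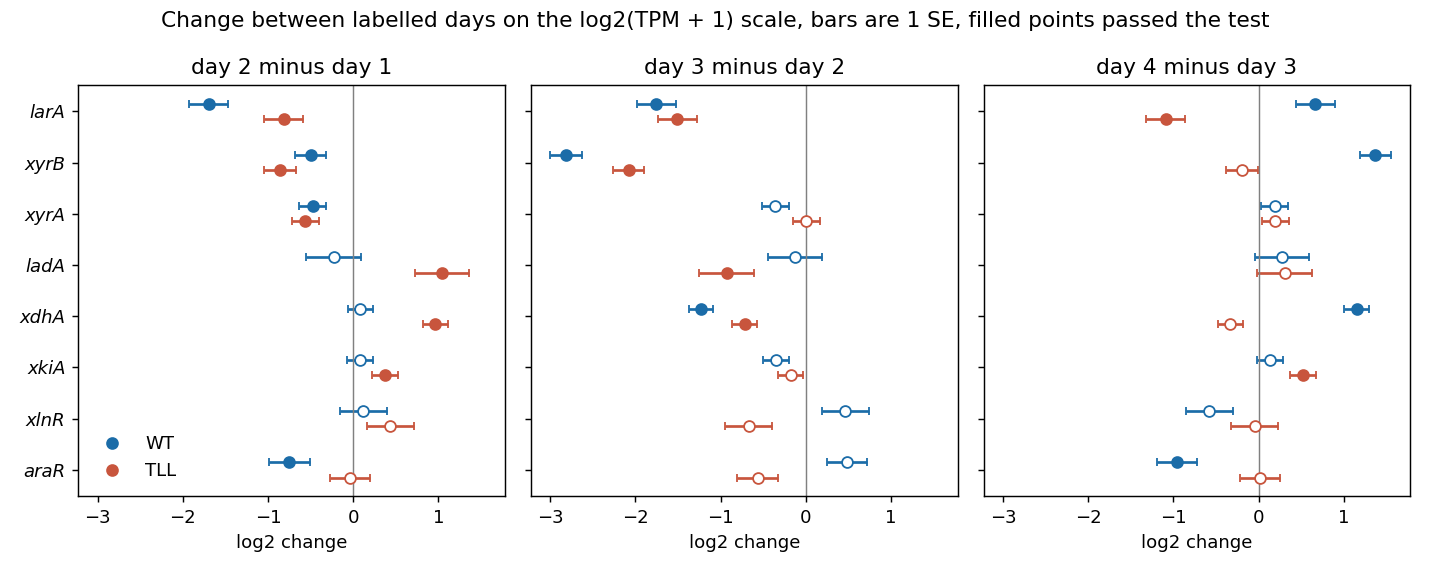
Log2 change of the 8 genes between successive labelled days in WT (blue) and TLL (red), on the log2(TPM + 1) scale, with bars of 1 SE and filled points where the limma adjusted p was under 0.05. At the last step larA, xyrB and xdhA lie at 0.66, 1.37 and 1.15 in WT and at -1.09, -0.19 and -0.34 in TLL.

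Across the days 5 of the 8 genes changed in WT (larA, xyrA, xyrB, xdhA and araR), where 77.2% of all genes passed the limma F test. In TLL 7 changed, all but xlnR, where 80.8% passed. From day 1 to day 2 in WT 4 genes passed and all 4 fell (larA, xyrA, xyrB and araR), where 34.5% of all genes passed and 11.6% fell. In TLL 6 passed in that step, with the reductase genes larA, xyrA and xyrB lower and ladA, xdhA and xkiA, the genes of the later reactions, higher. Of all genes 52.0% passed there, 38.4% as rises and 13.6% as falls. This split depended on the scaling. Median-of-ratios scaling, which moved the median change of all genes in this step from 0.28 to -0.03, left 1 rise (xdhA) and 3 falls. Quantile normalization left 1 rise and 4 falls, with araR added (-0.66, limma adjusted p = 0.00701). Across the days in TLL the call of ladA was lost under both scalings (limma adjusted p = 0.0949 and 0.301), and xlnR passed under quantile normalization (limma adjusted p = 0.00191). Without TLL day 1 replicate 3 or replicate 1 xlnR passed there too (limma adjusted p = 2.75e-05 and 0.00607). Across the days in WT xlnR passed under median-of-ratios scaling and quantile normalization (limma adjusted p = 0.0250 and 0.00352). It also passed in WT with only the libraries compared (limma adjusted p = 0.00882) and without TLL day 1 replicate 3 (limma adjusted p = 0.00148).

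From day 2 to day 3 larA, xyrB and xdhA fell in WT, where 53.6% of all genes passed and 33.5% fell. Under both other scalings these 3 falls stood beside 2 rises, those of xlnR and araR. In TLL larA, xyrB, ladA and xdhA fell, where 17.9% of all genes passed and 13.2% fell. The 8 genes' median log2 change in that TLL step was -0.70, beside -0.16 over all genes. From day 3 to day 4 in WT larA, xyrB and xdhA rose and araR fell, where 53.4% of all genes passed, 32.9% as rises and 20.4% as falls. Under both other scalings this step held 2 rises and 2 falls, since the rise of larA was lost and the fall of xlnR passed (-0.72, limma adjusted p = 0.0119, and -0.78, limma adjusted p = 0.00125). In TLL xkiA rose and larA fell, where 47.4% passed, 21.7% as rises and 25.7% as falls.

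The difference between the strains' steps was itself called for 1 of the 8 genes from day 1 to day 2 (xdhA), where 9.53% of all genes passed, 8.51% with the more positive step in TLL. Without WT day 1 replicate 1 that of larA, at 1.29 against 0.88 with all libraries, passed too (limma adjusted p = 0.000153). From day 2 to day 3 it was called for 3 (xyrB, xlnR and araR), where 27.1% passed, 15.1% with a more positive and 12.0% with a more negative step in TLL. For xyrB that value of 0.74 (SE 0.26, limma adjusted p = 0.0411) was lost under both other scalings, under the replicate block and in 10 of the 24 fits without 1 library. From day 3 to day 4 it was called for 4 (larA, xyrB, xdhA and araR), where 58.5% passed, 25.1% with a more positive and 33.4% with a more negative step in TLL. Of those 4 only araR had the more positive step in TLL. Median-of-ratios scaling gave 2 more positive and 3 more negative, with xkiA added (0.53, limma adjusted p = 0.0272), and quantile normalization gave 3 and 3, with xkiA (0.56, limma adjusted p = 0.0178) and xlnR (0.63, limma adjusted p = 0.0420) added.

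Both offset pairs of the last 2 days were also compared, a choice made with earlier results of these data known. Between TLL day 4 and WT day 3, 6 of the 8 genes passed, where 48.1% of all genes did, 31.2% as higher and 16.9% as lower in TLL. In TLL day 4 larA (-0.72), xlnR (-0.83) and araR (-0.58) were lower and xyrA (0.50), xdhA (0.70) and xkiA (0.78) higher on the log2 scale. The SEs were 0.23, 0.28, 0.24, 0.16, 0.15 and 0.15 in that order, and the largest limma adjusted p was 0.0492, for araR. The values of araR were lost in 16 of the 24 fits without 1 library, those of larA without WT day 3 replicate 2 (-0.60) or TLL day 4 replicate 1 (-0.63), that of xlnR without WT day 3 replicate 2 (-0.79), and that of xyrA without WT day 3 replicate 3 (0.38) and under both other scalings. The level of xyrB, 16.1 ± 1.36 TPM for TLL against 14.9 ± 3.05 TPM for WT in this pairing (mean ± SD, n = 3), gave a difference of 0.12 (95% interval -0.27 to 0.50).

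Between TLL day 3 and WT day 4, 1 of the 8 genes passed, where 11.8% of all genes did and 5.25% were lower in TLL. That gene was xyrB, at 18.5 ± 0.500 TPM for TLL and 40.0 ± 6.98 TPM for WT (mean ± SD, n = 3; log2 difference -1.06, SE 0.18, limma adjusted p = 0.000821). For xdhA, which differed between the strains on both labelled days, this pairing gave -0.11 (SE 0.15, limma adjusted p = 0.693). For larA it gave -0.30 (SE 0.23, limma adjusted p = 0.457).

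Likeness of pattern was measured as the root mean square difference between 2 genes over the 8 group means of log2(TPM + 1), each gene centred on its own mean. Among the 8 genes the smallest distance was 0.30, between ladA and xkiA, but xkiA ranked only 520th in likeness seen from ladA. By rank among all genes larA and xyrB were the most alike of the 8, at a distance of 0.42. Seen from xyrB, larA ranked 5th of 9557 genes in likeness, and seen from larA, xyrB ranked 11th, beside a median distance of 1.44 from larA to all non-members and 1.43 from xyrB. Both genes were measured in the same libraries and both fell after day 1, so this is a description with no test.

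Outside the 8 genes, those nearest to larA were NRRL3_04242 at 0.26, with a mean of 27.0 TPM on day 1 of WT and 0.393 TPM on day 4 of TLL, and NRRL3_06147 at 0.27. Nearest to xyrB were NRRL3_00022 at 0.27, which went from 38.8 TPM in WT day 1 to 3.75 TPM in WT day 3 and 12.5 TPM in WT day 4, and NRRL3_08535 at 0.35. Nearest to xdhA were NRRL3_09362 at 0.10 and NRRL3_02306 at 0.12, both lowest in WT day 3, at 24.9 and 19.6 TPM, and highest in TLL day 2, at 71.6 and 74.7 TPM. For xkiA they were NRRL3_09219 at 0.08 and NRRL3_02215 at 0.09, both highest in TLL day 4, at 70.6 and 58.6 TPM.

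Nearest to xyrA were NRRL3_02609 and NRRL3_06156, both at 0.08, and nearest to ladA were NRRL3_00177 at 0.08 and NRRL3_07455 at 0.14. Nearest to xlnR were NRRL3_10318 at 0.08, which was highest in WT day 3 at 19.3 TPM, and NRRL3_04503 at 0.10. Nearest to araR were NRRL3_08800 at 0.13 and NRRL3_07510 at 0.13, the second at a mean of 293 TPM over all libraries. The means of NRRL3_00177, NRRL3_04503 and NRRL3_08800 were under 1 TPM, at 0.870, 0.698 and 0.836 TPM. At such levels log2(TPM + 1) makes changes come out too small, which limits what their likeness shows. The sources used here give no names for these IDs. When Pearson's r over the 8 group means replaced the distance, 7 of the 16 names stayed the same.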

How the data were processed

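RNA sequencing of mycelium was deposited by the authors as 1 table of TPM values per gene and library. Per the submitters' processing notes HISAT2, StringTie and Cufflinks were named without roles or versions, and the table's name refers to RSEM, so the tool behind the TPM values is not settled. The genome build is not given in the sources used here. Each library summed to 999999 or 1000000 TPM, and 0 columns belonged to no sample. Of the 8 member IDs 0 were found in the reference table of 14404 RefSeq genes, where 2 of the names (xyrA and xlnR) are symbols.

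Values were transformed to log2(TPM + 1), and 9558 genes with 1 TPM or more in 3 or more libraries were kept. A model with 8 group means was fitted to all 24 libraries with limma 3.58.1 under R 4.3.3, using its moderated variance with an intensity trend and leaving 16 residual degrees of freedom. Tests were two-sided, and F tests had 3 degrees of freedom. Benjamini-Hochberg adjustment covered all genes kept, separately for each of 18 tests. The 3 tests of the difference between both strains' steps were added after values were seen. The model was tested on simulated data. The members, tests and measure of likeness were chosen with earlier results of these data known. All 8 members are named, with the 2 non-member genes most alike to each. Alternatives were quantile normalization, median-of-ratios scaling, pseudocounts of 0.1 or 5 TPM, a 5 TPM filter or none, a replicate block, fits of only the libraries compared and leaving out each library. Plots used matplotlib 3.10.9 (Python 3.11.15).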

Additional observations from a re-analysis of the deposited data

Results flagged for a closer look

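For 5 of the 8 genes the difference between TLL and WT was not the same on all days, by limma's F test of the interaction of strain and day. Of all tested genes 63.1% passed that test, so the count of 5 was near the background. The adjusted p was 7.19e-06 for xdhA, which was higher in TLL on day 3 and lower on day 4. It was 0.00024 for xyrB and 0.000348 for larA, both lower in TLL on day 4 and without a called difference on days 2 and 3. It was 0.0137 for xkiA, higher in TLL on day 4, and 0.0245 for araR, lower in TLL on day 3. These calls stayed under each of the 32 alternatives in which this test could be made. The interaction was also called for xlnR without TLL day 1 replicate 3 (limma adjusted p = 0.000236), without both day 1 libraries that stood away (limma adjusted p = 0.00016), after median-of-ratios scaling (limma adjusted p = 0.0162) and after quantile normalization (limma adjusted p = 0.00236), and without TLL day 1 replicate 1 (limma adjusted p = 0.00590). For ladA it went from a limma adjusted p of 0.104 to 0.00299 without WT day 1 replicate 1 and to 0.00495 without both day 1 libraries that stood away.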

How the results depend on the processing

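Of 64 calls of single genes in 18 tests, 39 were kept under every alternative run. Those include the day 4 differences of larA, xyrB and xkiA, the day 3 difference of xdhA and the falls of larA and xyrB from day 2 to day 3. The strain difference of day 1 was called for 1 gene, and for 0 with a pseudocount of 0.1 TPM, no filter, quantile normalization, the replicate block or without WT day 3 and TLL day 4 (limma, with 2 genes at an unadjusted p under 0.05 in each) and 0 with only the libraries compared (0 unadjusted). That of day 2 went from 1 to 0 under both other scalings and without WT day 3 and TLL day 4 (2 unadjusted each). The difference between the strains' steps from day 1 to day 2 went from 1 to 0 under both scalings and with only the libraries compared (2 unadjusted each). The WT step from day 2 to day 3 went from 3 to 5 under both scalings and to 6 with only the libraries compared. In such fits the WT step from day 1 to day 2 had 2 calls in place of 4 and the TLL step from day 3 to day 4 had 4 in place of 2. Over all genes the fits of only the libraries compared called 6165, 1847 and 6097 genes for these steps, in that order. The main fit called 5125, 3298 and 4533. Without the 2 day 1 libraries that stood away, an alternative chosen after seeing the data, the counts were 4 at day 1 and 3 at day 2. The WT step from day 2 to day 3 had 6, and the difference between the steps from day 1 to day 2 had 5. Of all 9558 genes, 2468, 2802, 6289 and 2945 passed in that order, against 699, 928, 5125 and 911 with all libraries. Without those 2 libraries xlnR had a day 1 difference of -0.48, against 0.03. Leaving out 1 library moved that difference between -0.51 (TLL day 1 replicate 3) and 0.43 (TLL day 1 replicate 1). The change of xkiA from day 1 to day 2 in TLL was -0.0058 after quantile normalization, against 0.37. The cause was not tested. Of 16 genes named for likeness, 7 were also named by Pearson's r.

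Leaving out 1 library gave 0 to 3 calls at day 1, 0 to 1 at day 2, 1 to 4 at day 3 and 3 to 4 at day 4, and 5 to 6 for the interaction. The WT steps gave 1 to 4, 3 to 5 and 3 to 5 calls, and the TLL steps 5 to 6, 3 to 5 and 1 to 3. Differences between the steps gave 1 to 3, 0 to 4 and 3 to 5. The F tests across days gave 5 to 6 in WT and 6 to 8 in TLL. TLL day 4 against WT day 3 gave 3 to 6, and TLL day 3 against WT day 4 gave 1 in every such fit. Same-numbered libraries deviated from their group means with correlations of -0.64 to 0.44, over 0.1 in 11 of 84 pairs, so the replicate numbers were not taken as pairs. The replicate block gave 0 calls in place of 1 at day 1 and moved no other count by over 1.5 times. Besides larA at day 1 the block ended the calls of xyrB for the WT step from day 1 to day 2 (limma adjusted p = 0.0515), of ladA for the TLL step from day 2 to day 3 (0.0626) and of xyrB for the difference between the steps from day 2 to day 3 (0.0514), and no other call. Depth is unknown, and the low levels of ladA, araR, xlnR and xyrA limit what their tests can show.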
